A study of Mus musculus with 7 samples.

Results

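The suppressors of cytokine signalling (SOCS family) were followed at the RNA level in T-cells of knock-in (KI) mice for ORP4L and of wild-type (WT) mice. The members are the 8 genes Cish and Socs1 to Socs7, chosen by name and not by their values. All 8 were listed among the 25033 genes of the files, and all 8 passed the filter for low counts that left 13462 genes for testing. The study set 4 libraries of ORP4L KI mice against 3 libraries of WT mice, with 1 mouse per library, all labelled C57BL/6J, primary T-cells and 15 months of age. ORP4L KI mice carry the human ORP4L coding sequence in the Rosa26 locus behind a stop cassette that Cre removes under the Lck promoter, and the study describes the sequenced ORP4L KI mice as moribund and the WT mice as littermates of equal age. The methods give blood or spleen as the source of mouse T-cells, and describe isolation of CD4+ T-cells with a kit for naive CD4+ cells and then culture with interleukin-2 and PHA. They do not say which source, or whether the kit or the culture, applies to these libraries.

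SOCS proteins are the negative feedback arm of cytokine signalling. A cytokine receptor activates Janus kinases (JAK), these phosphorylate STAT transcription factors, and the STAT factors switch on SOCS genes whose products then bind the receptor or the kinase through an SH2 domain. A shared C-terminal motif, the SOCS box, recruits elongins and a cullin ligase that tags the bound proteins for degradation. In T-cells, Cish and Socs2 are best known as targets of STAT5 downstream of interleukin-2, Socs1 as the brake on interferon and common gamma chain cytokines, and Socs3 as the brake on receptors that use gp130. Socs4 to Socs7 have long N-terminal regions and are studied less in lymphocytes.

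Promoter windows from RefSeq (GRCm38.p6, 250 bases before to 50 after an annotated start) were at hand for 4 of the 8 members, Cish, Socs1, Socs3 and Socs4. They were searched on both strands for TTCNNNGAA, the core letters of STAT binding sites, and for GAAANNGAAA, a pair of the GAAA cores used by interferon regulatory factors. Of 32851 windows of 27025 genes, 8.30% held the first and 3.44% the other. The stretches below are shown because they are the cytokine-response letters in the windows of the 3 most abundant members. Capitals mark the matches, which may overlap.
Cish: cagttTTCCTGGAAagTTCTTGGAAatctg
Socs1: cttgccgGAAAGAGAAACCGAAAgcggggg
Socs3: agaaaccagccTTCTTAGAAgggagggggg

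The Cish stretch lies at chr9:107296654-107296683 on the plus strand and holds 2 STAT cores in the first bases after the RefSeq start, where 0.457% of all windows held at least 2. The Socs1 stretch lies at chr16:10785597-10785626 on the minus strand and holds 2 overlapping GAAA pairs, which begin 83 and 77 bases before the start, where 0.225% of all windows held at least 2. The Socs3 stretch lies at chr11:117969502-117969531 on the minus strand, with a STAT core that begins 154 bases before the start. The Cish and Socs3 stretches fall inside the spans that GENCODE M21 gives for these genes on the same build, which run from 107296026 to 107302784 and from 117966079 to 117970047. The Socs4 window held neither set of letters. That gene spans chr14:47276931-47296102, Socs2 chr10:95385362-95417180, Socs5 chr17:87107679-87137839 and Socs7 chr11:97362551-97398542 in the same annotation. No measurement here tests binding at these letters.

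The libraries held between 12918187 and 19665679 counts. Osbp2, the mouse gene of ORP4L, was counted 0, 0 and 1 times in the WT libraries and 188, 742, 155 and 443 times in the libraries of ORP4L KI, so each library matched its label. The knock-in sequence is human and the reads were mapped to mouse references. These counts therefore cannot tell reads of the knock-in from reads of the mouse gene. All 13 T-cell markers examined, among them Cd3e, Lck and Cd4, had counts in every library (at least 842), and took 0.261% to 0.380% of the counts in WT and 0.129% to 0.475% in ORP4L KI. The 14 granulocyte markers, such as Mpo and S100a9, took 0.186% to 0.530% in WT and 1.12% to 12.2% in ORP4L KI, and exceeded the share of the T-cell markers in 6 of 7 libraries. ORP4L KI replicate 1 had the highest granulocyte share and the lowest T-cell share. The CD8 genes Cd8a and Cd8b1, which a CD4+ isolation would deplete, had at least 842 counts in every library too. Dendritic cell markers took 0.0542% to 0.0756% in WT and 0.0120% to 0.0264% in ORP4L KI, and erythroid markers 1.08% to 1.85% and 0.117% to 0.852%, both without overlap. By the calling rule given with the members, 7 of 8 dendritic cell, 4 of 8 NK cell and 2 of 12 monocyte markers were lower in ORP4L KI. That rule called 4.68% of all genes tested. The NK cell list was split, as Eomes and Nkg7 had log2 fold changes of 1.59 and 0.69. Neither was called, and for both every ORP4L KI library lay above WT, as in 6.43% of all genes tested. The shares of monocyte (0.300% to 0.451% in WT, 0.190% to 0.501% in ORP4L KI), NK cell (0.0714% to 0.0889%, 0.0397% to 0.120%), B-cell (0.0390% to 0.0667%, 0.0229% to 0.0620%) and megakaryocyte markers (0.0199% to 0.0258%, 0.0114% to 0.0372%) overlapped between the groups. Lyz2 gave most of the monocyte share and was the 1 marker of that list with a positive log2 fold change (0.27). The other 11 were negative, and in 4 every ORP4L KI library lay below WT, as in 7.38% of all genes tested. No marker was at 0 in any library. In bulk RNA, fewer cells of a type and less RNA per cell cannot be told apart.

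**Figure D1:**
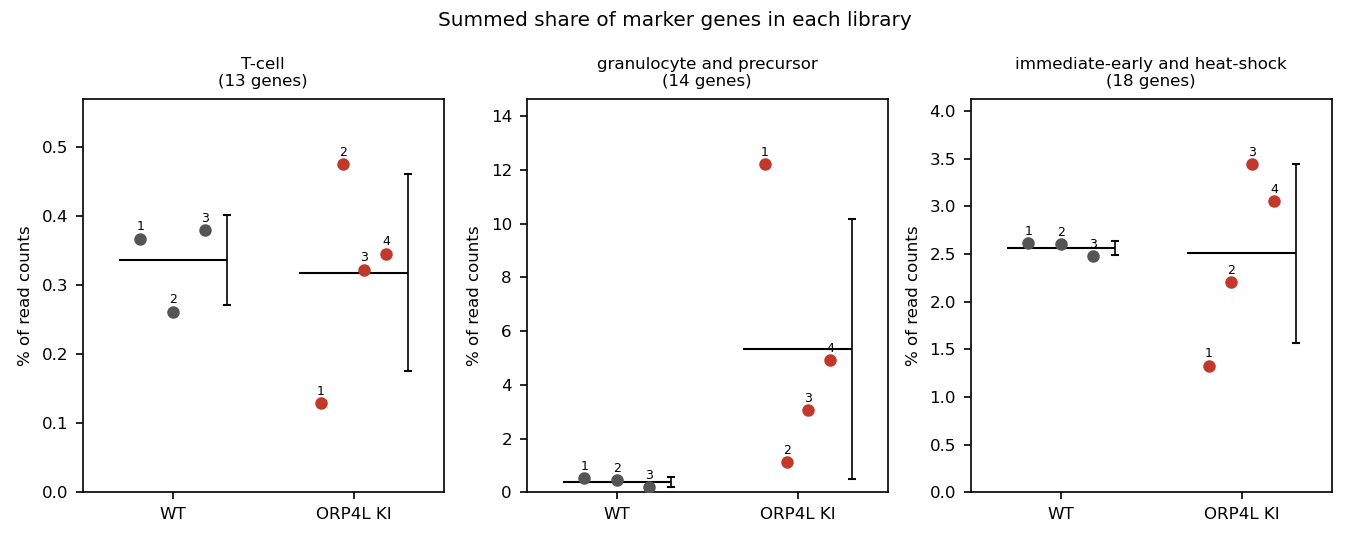
Share of read counts (%) taken by T-cell, granulocyte, and immediate-early and heat-shock genes in each library, with points for mice labelled by replicate number and bars for the mean and SD of 3 WT and 4 ORP4L KI libraries. Granulocyte genes took 12.2% in ORP4L KI replicate 1, where T-cell genes took 0.129%, and the immediate-early genes lay between 2.48% and 2.61% in WT but between 1.33% and 3.44% in ORP4L KI.

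Per transcript length, Socs3 was the most abundant member in all 7 libraries, followed by Socs1 and then Cish. Levels were compared between genes only as RPKM, the deposited read values scaled by the longest transcript and by sequencing depth. Socs3 had 108 ± 12.4 RPKM (SD, n = 3) in WT and 149.5 ± 65.0 RPKM (SD, n = 4) in ORP4L KI, and took between 55.2% and 68.5% of the summed RPKM of the family. Between 1.55% and 5.52% of all listed genes lay above it in a library. Socs1 had 27.5 ± 2.75 RPKM in WT and 40.4 ± 17.2 RPKM in ORP4L KI, and Cish 17.8 ± 3.50 and 19.1 ± 6.67 RPKM. These 3 places in the order were the same in every library, so their order did not turn on the group.

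Below them the family was low, and places in the order differed between libraries. Socs2 (5.95 ± 0.611 RPKM in WT, 5.35 ± 1.37 in ORP4L KI) and Socs4 (5.01 ± 2.41 and 4.62 ± 1.64) took places 4 and 5 in either order. Socs7 (3.56 ± 1.08 and 3.47 ± 1.18), Socs5 (3.45 ± 0.358 and 2.18 ± 1.11) and Socs6 (2.73 ± 0.641 and 3.23 ± 1.15) shared the last places. The ranges over libraries of members next to each other in this order overlapped in both groups. Socs5 was 7th by the WT mean and 8th by the ORP4L KI mean, exchanging places with Socs6. The exchange held in single libraries by RPKM, and it was not tested. Socs6 was 8th in every WT library, below Socs5 each time. In every ORP4L KI library Socs6 was 7th and Socs5 8th.

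**Figure D2:**
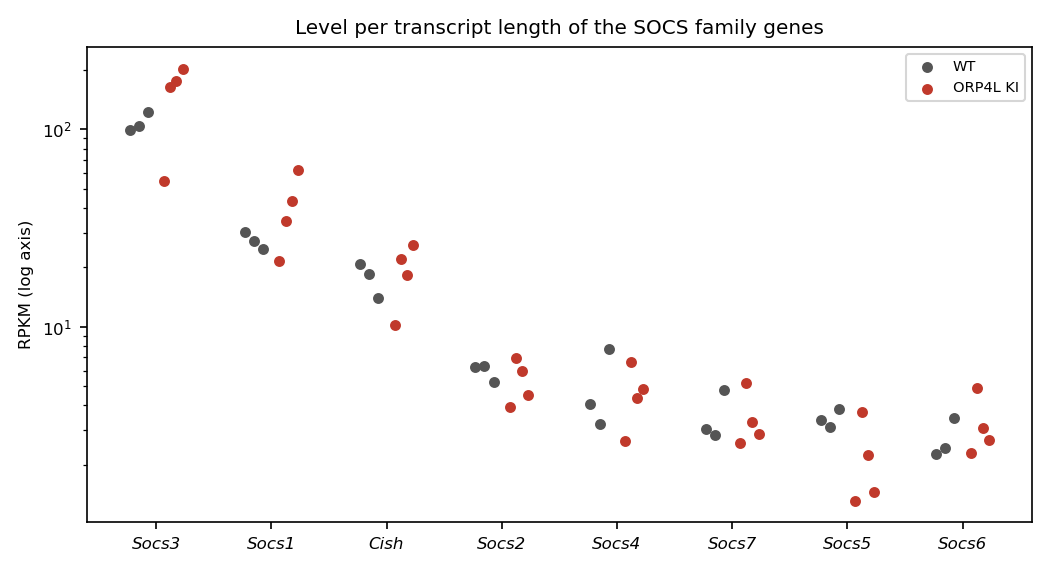
RPKM of the 8 members on a log axis, with points for libraries (WT grey, ORP4L KI red) and genes ordered by the WT mean. Socs3, Socs1 and Cish stand above the other 5 members in every library, and ORP4L KI replicate 1 has the lowest Socs3 value at 55.1 RPKM.

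No member passed a threshold between ORP4L KI and WT T-cells. The calling rule took the lines drawn in the study, an unadjusted p under 0.01 together with a log2 fold change over 1 in size, and an adjusted p under 0.05 was counted as a separate rule. By edgeR's quasi-likelihood test the first rule called 0 of 8 members, against 4.68% of all genes tested, and the adjusted rule 0 of 8, against 0.0223%. At an unadjusted p under 0.05 there were 0 of 8 members, where 13.7% of all genes passed. The Wald test of DESeq2 and edgeR's exact and likelihood ratio tests also called 0 members by either rule, where 5.83%, 5.07% and 5.24% of all genes passed the adjusted one, and each had 1 member, Socs1, at an unadjusted p under 0.05. In no member did the ORP4L KI libraries all lie above the WT libraries, which 6.43% of all genes did, or all below, which 7.38% did. The median log2 fold change of the members was 0.16, with 6 positive and 2 negative, and that of all genes tested was 0.013.

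**Figure D3:**
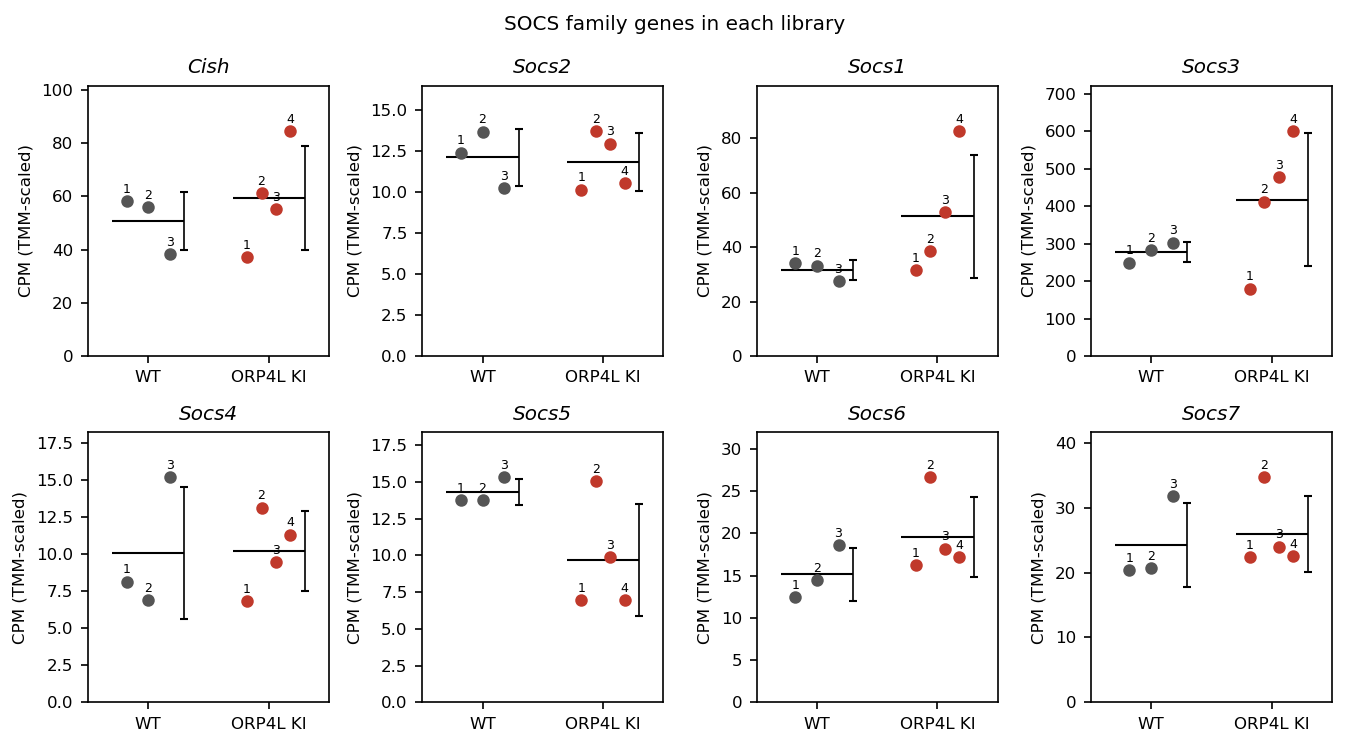
CPM (read counts scaled to library size by TMM) of each member in each library, with points labelled by replicate number and bars for the mean and SD of 3 WT and 4 ORP4L KI mice. The groups overlap for all 8 genes, and in Socs1 and Socs3 the replicates 2, 3 and 4 of ORP4L KI lie above every WT library while replicate 1 does not.

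Socs1 and Socs3, the 2 members with a kinase inhibitory region that blocks JAK directly, had the largest positive differences. Socs3 (NM_007707) had 249, 283 and 303 CPM in WT replicates 1, 2 and 3, and 179.8, 412, 479 and 601 CPM in ORP4L KI replicates 1, 2, 3 and 4. Replicates 2 to 4 of ORP4L KI lay above all WT libraries and replicate 1 lay below all of them. The log2 fold change was 0.59 (standard error 0.36, 95% interval -0.22 to 1.39, edgeR adjusted p = 0.543). The exact permutation test over the 7 libraries gave a two-sided p of 0.343, where 0.0286 is the lowest it can give.

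The spread of Socs3 differed between the groups. Its highest ORP4L KI library held 3.34 times the CPM of the lowest, against 1.22 times in WT. Of 9186 genes with a mean log2 CPM of at least 3, 8.20% had an ORP4L KI range at least as wide, and the median range over these genes was 1.68 in ORP4L KI and 1.44 in WT. With ORP4L KI replicate 1 left out, the log2 fold change of Socs3 was 0.83 (95% interval 0.36 to 1.30, unadjusted p = 0.00328, adjusted p = 0.108 by edgeR), still under the fold threshold. With replicate 4 left out, the highest library, it was 0.35 (unadjusted p = 0.354 by edgeR). Replicate 1 had the granulocyte share of 12.2% given above, and the smallest share of immediate-early and heat-shock genes, 1.33%, while ORP4L KI replicates 3 and 4 had 3.44% and 3.06% of the latter. Of the 18 immediate-early and heat-shock genes 1 was called, Ier3, higher in ORP4L KI (log2 fold change 1.14), where 4.68% of all genes tested were called. The part of cell composition and of these genes in the Socs3 values was not tested.

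Socs1 (NM_001271603, NM_009896) had 34.2, 33.2 and 27.5 CPM in WT and 31.6, 38.4, 52.8 and 82.7 CPM in ORP4L KI replicates 1 to 4. Replicate 1 lay within the WT range and the other replicates above it. The log2 fold change was 0.70 (standard error 0.32, 95% interval -0.019 to 1.42, adjusted p = 0.382 by edgeR), a 1.62-fold difference in means that did not exceed the spread between mice. Without ORP4L KI replicate 1 it was 0.87 (unadjusted p = 0.0128, adjusted p = 0.196 by edgeR), and without replicate 4, the highest library, it was 0.37.

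Which ORP4L KI library stood with WT depended on what the reads were set against. Relative to the summed counts of the 13 T-cell markers of the same library, a scale added after the data were seen, Socs3 had 73.4, 108 and 87.8 reads per 1000 T-cell marker reads in WT and 116, 94.7, 148 and 160.2 in ORP4L KI. On this scale replicate 1 of ORP4L KI lay above every WT library and replicate 2 lay among them. The difference of mean log2 ratios was 0.52 (exact permutation test, two-sided p = 0.114). Socs1 had 10.1, 12.7 and 7.98 reads per 1000 in WT and 20.4, 8.82, 16.3 and 22.0 in ORP4L KI, with the same exchange of replicates 1 and 2. Its difference was 0.66 (exact permutation p = 0.143). Replicate 1 of ORP4L KI, which had the lowest T-cell share, was the highest library on this scale for Cish, Socs2, Socs4, Socs6 and Socs7. Socs3 and Socs1 thus had 3 of 4 ORP4L KI libraries above WT on either scale, but not the same 3. The share of all genes with 3 of 4 ORP4L KI libraries above or below WT is not given here. Such counts are therefore no support for a difference.

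**Figure D4:**
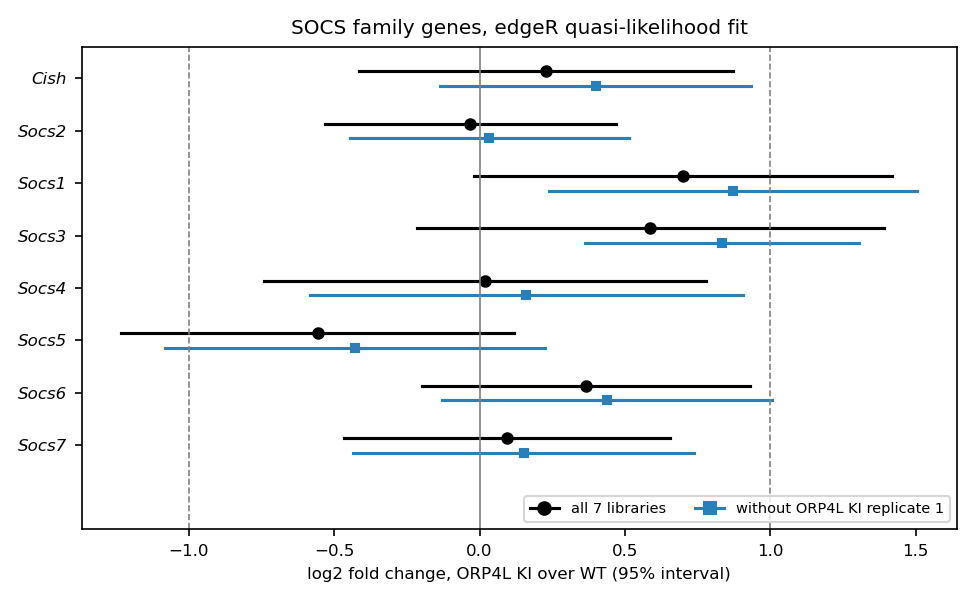
Log2 fold change of each member, ORP4L KI over WT, with its 95% interval from edgeR's quasi-likelihood fit of all 7 libraries (black) and of 6 libraries without ORP4L KI replicate 1 (blue), and dashed lines at a log2 fold change of 1 in either direction. All black intervals cross 0, and without replicate 1 those of Socs1 and Socs3 lie above 0. In both genes replicate 1 is the ORP4L KI library not above WT, so leaving it out widens the difference. Without ORP4L KI replicate 4, not drawn, Socs1 was 0.37 and Socs3 0.35 (unadjusted p = 0.173 and 0.354 by edgeR).

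Cish and Socs2, the feedback genes of STAT5, differed little between the groups. Cish (NM_001317354, NM_009895), which bears the pair of STAT cores shown above and restrains interleukin-2 and T-cell receptor signals, had 58.1, 56.0 and 38.3 CPM in WT and 37.1, 61.3, 55.1 and 84.6 CPM in ORP4L KI. Its lowest library was ORP4L KI replicate 1 and its highest ORP4L KI replicate 4, as in Socs3. The log2 fold change was 0.23 (standard error 0.29, 95% interval -0.41 to 0.87, adjusted p = 0.818 by edgeR), and it was 0.0084 without replicate 4. Socs2 (NM_007706 and 3 more transcripts), a regulator of growth hormone signals, had 12.4, 13.7 and 10.2 CPM in WT and 10.2, 13.7, 13.0 and 10.6 CPM in ORP4L KI. Its groups overlapped over nearly their whole range (log2 fold change -0.03, 95% interval -0.53 to 0.47, adjusted p = 0.971 by edgeR), and this sign turned relative to T-cell markers and in fits of fewer libraries.

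Socs5 (NM_019654), an inhibitor of interleukin-4 and growth factor receptor signals, had the largest negative difference. It had 13.8, 13.8 and 15.3 CPM in WT and 6.93, 15.1, 9.87 and 6.96 CPM in ORP4L KI replicates 1 to 4. Replicates 1, 3 and 4 lay below every WT library and replicate 2 lay between the WT values. The log2 fold change was -0.56 (standard error 0.30, 95% interval -1.23 to 0.12, adjusted p = 0.476 by edgeR, exact permutation p = 0.114). Leaving out ORP4L KI replicate 2, the only library of its group within the WT range, gave -0.87 (unadjusted p = 0.00763, adjusted p = 0.124 by edgeR). Dropping the library that overlaps WT can only widen the difference, so this fit is no support for it. The value was -0.43 without ORP4L KI replicate 1 and -0.43 without replicate 4 (unadjusted p = 0.170 and 0.207 by edgeR). Replicate 2 had the highest T-cell marker share (0.475%) and the lowest granulocyte share (1.12%) of the ORP4L KI group. Relative to T-cell marker reads the difference was -0.58 (exact permutation p = 0.143), with 3 of 4 ORP4L KI libraries below WT.

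Socs4, Socs6 and Socs7 had their highest WT value in replicate 3 and their highest ORP4L KI value in replicate 2, as did Socs5. Socs4 (NM_080843) ranged from 6.91 to 15.2 CPM in WT and from 6.81 to 13.1 CPM in ORP4L KI (log2 fold change 0.018, 95% interval -0.74 to 0.78, adjusted p = 0.989 by edgeR). Its sign turned with total-count or upper-quartile scaling and in fits of fewer libraries. Socs6 (NM_018821), which binds signalling receptors such as Kit, had 12.5, 14.5 and 18.6 CPM in WT and 16.2, 26.6, 18.2 and 17.2 CPM in ORP4L KI, a log2 fold change of 0.37 (95% interval -0.20 to 0.93, adjusted p = 0.605 by edgeR). It was 0.16 without ORP4L KI replicate 2 and 0.24 without WT replicate 1. Socs7 (NM_138657), a partner of adaptor proteins such as Nck, ranged from 20.4 to 31.7 CPM in WT and from 22.4 to 34.6 CPM in ORP4L KI (log2 fold change 0.09, 95% interval -0.47 to 0.65, adjusted p = 0.923 by edgeR). Its sign turned with total-count scaling and in fits that left out a library. For Cish, Socs2, Socs4, Socs6 and Socs7, 5 of the 8 members, the 95% interval lay inside a log2 fold change of 1 in either direction, whereas those of Socs1, Socs3 and Socs5 reached past it.

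Ratios between related members within a library do not depend on how libraries are scaled. Of 4 ratios of RPKM examined, Socs7 to Socs6 was the 1 whose groups did not overlap, at 1.16 to 1.39 in WT and 1.06 to 1.12 in ORP4L KI. The mean log2 ratio differed by -0.26 (exact permutation test, two-sided p = 0.0286, which is the lowest it can give, and 0.114 after Benjamini-Hochberg adjustment over the 4 ratios). Socs3 to Socs1 ran from 3.26 to 4.92 in WT and from 2.54 to 4.80 in ORP4L KI (exact p = 0.657). Cish to Socs2 ran from 2.67 to 3.34 and from 2.61 to 5.72 (exact p = 0.686), and Socs4 to Socs5 from 1.03 to 2.02 and from 1.78 to 3.32 (exact p = 0.2). The adjusted p of these 3 ratios was 0.4 or higher. Other pairs of members were not tested as ratios, so Socs7 to Socs6 need not be the only pair that separates the groups. Socs5 lay above Socs6 by RPKM in every WT library and below it in every ORP4L KI library.

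The summed counts of the family repeated the pattern of Socs3, which gives most of them. The 8 members together had 408, 442 and 459 CPM in WT and 311, 615, 661 and 837 CPM in ORP4L KI. The replicate 1 library of ORP4L KI was again the lowest of all 7, and the other 3 were above every WT library.

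Likeness to other genes was measured as the root mean square difference of centred log2 CPM over the 7 libraries, among genes with a mean log2 CPM of at least 3, as a description of these libraries only. The nearest genes to Socs3 were Sytl3 (0.104), Hexim1 (0.125) and Bag3 (0.148), a heat-shock co-chaperone, and those to Socs1 were Sfn (0.103), Ralgds (0.171) and Ctla2a (0.179). Nearest to Cish were Panx1 (0.122), Siah2 (0.128) and Nek8 (0.147), and nearest to Socs5 were Herc6 (0.0962), Ccdc142 (0.104) and Slc9a7 (0.115). For Socs2 they were Ube2e1, Gpr65 and Mars (0.0753 to 0.0903). For Socs4 they were Pde3b, Frmd6 and Tnrc6b (0.0460 to 0.0770), for Socs6 1810013L24Rik, Gsk3b and Ncoa1 (0.0885 to 0.0919), and for Socs7 Alkbh5, Trip12 and Slc7a6 (0.0415 to 0.0492). Within the family the closest pair was Socs6 and Socs7 (0.146), followed by Socs4 and Socs7 (0.234) and by Cish and Socs1 (0.295).

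Genes around the family in the pathway were counted by the same rules. Of 109 pathway genes tested outside the family, 3 were called (2.75%, against 4.68% of all genes), 1 higher and 2 lower in ORP4L KI, while 0 had an adjusted p under 0.05 by edgeR's quasi-likelihood fit. At an unadjusted p under 0.05 there were 17 (15.6%, against 13.7% of all genes). Of the same 109 genes, 4 had every ORP4L KI library above WT, as did 6.43% of all genes. Every ORP4L KI library lay below WT in 9, and in 7.38% of all genes. With an adjusted p under 0.05 there were 5 by DESeq2 (4.59%, against 5.83% of all genes), 2 by the exact (1.83%, against 5.07%) and 4 by the likelihood ratio method of edgeR (3.67%, against 5.24%), with Il10 and Lifr among them each time. Among the 4 JAK kinases and 7 STAT factors none was called. Stat2 and Stat6, which serve type I interferon and interleukin-4, had log2 fold changes of -0.57 and -0.35 (adjusted p = 0.317 and 0.429 by edgeR), and for both every ORP4L KI library lay below WT. Stat3, the factor upstream of Socs3, had a log2 fold change of 0.24, and Stat5a and Stat5b, upstream of Cish, had -0.06 and -0.21 (adjusted p = 0.693, 0.950 and 0.798 by edgeR). Further values were Stat4 at 0.20, Jak1 at 0.05, Jak2 at 0.02, Jak3 at 0.18 and Tyk2 at -0.50, with adjusted p from 0.428 to 0.989 by edgeR.

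**Figure D5:**
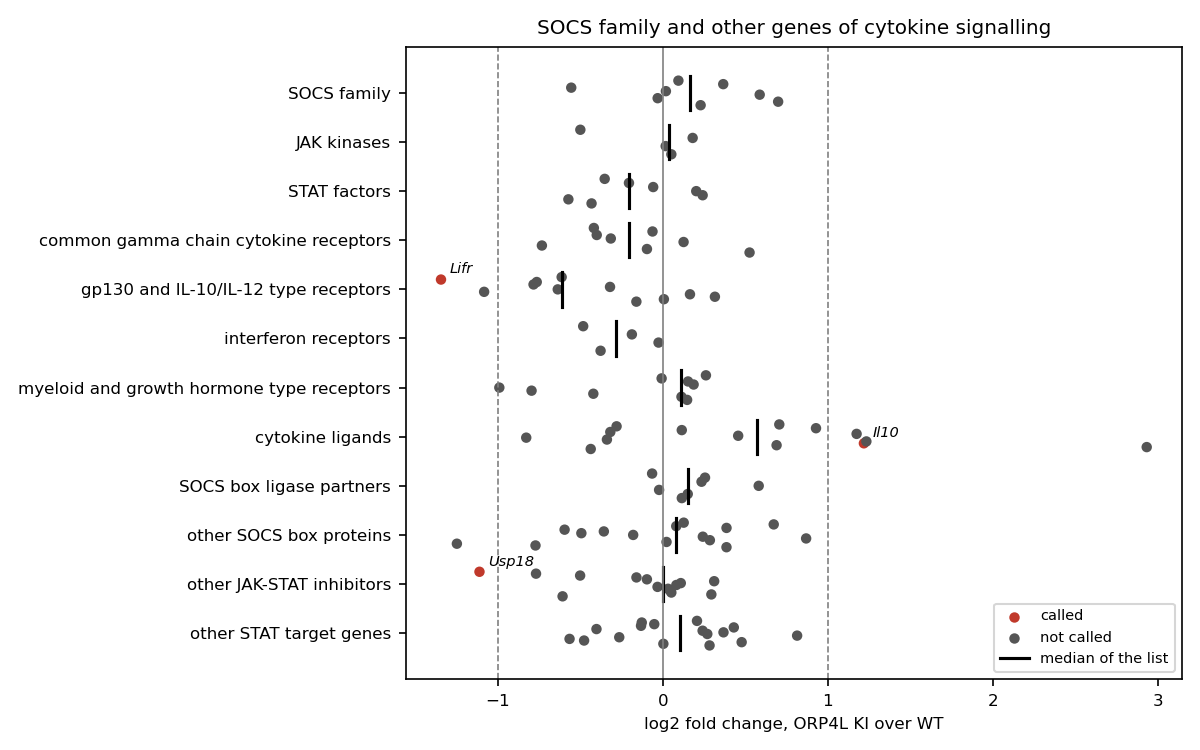
Log2 fold change, ORP4L KI over WT, of the SOCS family and of 11 lists of other cytokine signalling genes, with a point per gene tested, red where called, and a bar at the median of each list. The called genes are Lifr and Usp18 on the lower side and Il10 on the higher side, and no point of the SOCS family is called.

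Among ligands, Il10, a cytokine that signals through STAT3 and is known to induce Socs3, was the called gene. It had 21.4, 14.5 and 14.5 CPM in WT and 25.2, 46.6, 31.9 and 52.3 CPM in ORP4L KI, so the groups did not overlap. Its log2 fold change of 1.22 had a standard error of 0.30 (edgeR adjusted p = 0.104, exact permutation p = 0.0571). Its call was lost without WT replicate 2 or 3, at log2 fold changes of 1.12 in both fits. Csf3, the granulocyte growth factor, was not called and was low, counted 8, 23 and 1 times in WT and 132, 17, 45 and 152 times in ORP4L KI (unadjusted p = 0.0124, adjusted p = 0.192 by edgeR). Of 14 ligands tested, 9 had a positive and 5 a negative difference.

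Receptors gave 1 call among 32 genes tested, where 4.68% of all genes were called. Lifr, the receptor of leukaemia inhibitory factor that pairs with gp130, had 18.3, 24.4 and 20.7 CPM in WT and 10.1, 10.3, 8.72 and 4.10 CPM in ORP4L KI, with no overlap (log2 fold change -1.34 ± 0.32 standard error, edgeR adjusted p = 0.0968, exact permutation p = 0.0286). The lowest p in the other receptor lists belonged to Il2ra, the alpha chain for interleukin-2 (log2 fold change -0.73, unadjusted p = 0.0278), Ifngr2 (-0.48) and Csf2rb2 (-0.80, unadjusted p = 0.0151), none of them called (adjusted p of Il2ra 0.287 and of Csf2rb2 0.214 by edgeR). The median log2 fold change was -0.21 for common gamma chain receptors, -0.61 for receptors of the gp130 and interleukin-10 or interleukin-12 type, -0.28 for interferon receptors and 0.11 for myeloid and growth hormone type receptors. All granulocyte markers were called higher, 14 of 14, while Csf3r, the receptor of Csf3 on granulocytes, had a log2 fold change of -0.99 (adjusted p = 0.286 by edgeR). The part of the dendritic cell, NK cell and monocyte markers that were called lower in the values of Lifr, Csf3r, Stat2 and Usp18 was not tested.

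Other brakes of the pathway gave 1 call among 14 genes tested, where 4.68% of all genes were called. Usp18, an interferon-induced inhibitor of the type I interferon receptor, had 13.5, 9.30 and 6.32 CPM in WT and 3.35, 5.75, 5.17 and 3.67 CPM in ORP4L KI (log2 fold change -1.11 ± 0.33 standard error, edgeR adjusted p = 0.159). All ORP4L KI libraries lay below WT, but its call was lost in 5 of 7 fits that each left out a library, and leaving out WT replicate 1 moved it most, to -0.80. The PIAS proteins and the phosphatases Ptpn1, Ptpn2, Ptpn6 and Ptpn11 had log2 fold changes between -0.10 and 0.31. None of the 7 ligase partners of the SOCS box (-0.07 to 0.58), of 15 other SOCS box proteins or of 16 other STAT target genes (-0.57 to 0.81) was called. Wsb1, a SOCS box protein outside the family, had 125 to 174 CPM in WT and 221 to 244 CPM in ORP4L KI without overlap (log2 fold change 0.67, unadjusted p = 0.00604, adjusted p = 0.147 by edgeR), and was chosen after its values were seen.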

How the data were processed

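Trimmed reads had been mapped by the authors to mouse mRNA references with FANSe3 (build mm10 in the submitters' processing notes), and reads under 17 nt dropped. The deposited files give the raw read count of each gene, splice variants merged, and the authors' RPKM by longest transcript. The handling of reads shared by paralogs is not given in the sources used here, so counts of related members carry that uncertainty. The counts went into edgeR 4.0.16 (R 4.3.3) with filterByExpr, TMM scaling, and the quasi-likelihood test without covariates, with Benjamini-Hochberg adjustment over 13462 genes. Standard errors are the log2 fold change divided by the square root of F. RPKM served only to order members and for ratios. Log2 CPM used a prior count of 2. Groups and replicate numbers come from the sample titles. The members, gene lists and tests were chosen with earlier results of these data known. Named outside the family were pathway genes called by either rule, the JAK and STAT genes (1 is not reported here), the receptor of lowest p per list, and the 3 genes nearest to each member. Other genes, such as Wsb1, Ier3, Csf3, Csf3r, Ptpn and PIAS genes, were chosen after their values were seen. Alternatives were other scalings, filters and tests (DESeq2 1.42.0), a replicate block, thinned counts and each library left out. Replicate libraries of a group differed beyond sampling noise and were all kept. The tests were checked on simulated data. Sequences and plots used Python 3.11.15, pandas 2.3.3 and Matplotlib 3.10.9.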

Additional observations from a re-analysis of the deposited data

Results flagged for a closer look

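Socs7 had 34.6 CPM in ORP4L KI replicate 2, against 22.4 to 24.0 CPM in the other 3 ORP4L KI libraries, a gap wide enough by Dixon's criterion for 4 samples to set that library apart. It was the only such case among the 25 genes examined in the ORP4L KI group, where chance gives about 1.25.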

How the results depend on the processing

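The number of members called was 0 under all 18 alternatives, and 134 of 152 log2 fold changes of members kept their direction. The unpaired fit of replicates 1 to 3 is the same fit as the one without ORP4L KI replicate 4. Its values enter these counts under both names. With upper-quartile scaling Socs4 was -0.033. With total counts alone Socs4 was -0.12 and Socs7 -0.035. This scaling moved the median of all genes by -0.14, and 40.3% of its 682 calls were higher. Relative to T-cell markers, added after seeing the data, Socs2 was 0.023. Each library left out in turn gave -0.14 to 0.065 for Socs2, -0.19 to 0.44 for Socs4 and -0.099 to 0.34 for Socs7. These fits gave 329 to 805 genes called, the lowest without WT replicate 2, and 0 to 345 with an adjusted p under 0.05, the most without ORP4L KI replicate 2. They gave 2 to 7 pathway genes called, the most again without that library, 0 to 3 higher and 1 to 4 lower.

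Replicates 1 to 3 share only a number: 1 of 3 same-numbered pairs had deviations with a correlation over 0.1 (mean -0.129), and not every library was closest to its own number. The replicate block, which leaves out ORP4L KI replicate 4, gave Socs2 0.013, Socs3 0.24, Socs4 -0.014 and Cish 0.00047, 466 genes called, 48 with an adjusted p under 0.05, and 1 pathway gene, 0 higher and 1 lower. The same libraries without the block gave Socs2 0.017, Socs3 0.35, Socs4 -0.046 and Cish 0.0084, 0 genes with an adjusted p under 0.05 (1421 at an unadjusted p under 0.05) and 1 pathway gene lower.

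The 3 genes with an adjusted p under 0.05 became 44 with upper-quartile scaling, 113 with total counts, 176 without a filter, 0 with at least 10 counts in every library (1549 at an unadjusted p under 0.05), 784 by the Wald test of DESeq2, and 682 by the exact and 706 by the likelihood ratio test of edgeR. Called pathway genes numbered 5 by each of these 3 tests, with 3, 2 and 2 higher. Without a filter 2 were higher, and with thinned counts 1 was lower. The causes were not tested. With 4 against 3 libraries, the 95% intervals of Socs1, Socs3 and Socs5 reached past a 2-fold difference.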

Other observations

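Jak1 had 457, 459 and 785 CPM in WT and 287, 900, 599 and 562 CPM in ORP4L KI, and Jak2 had 214, 244 and 284 CPM in WT and 128, 380, 227 and 267 CPM in ORP4L KI. In both genes WT replicate 3 and ORP4L KI replicate 2 were the highest of their groups. Across all genes tested, which are not independent of each other, the deviations of these 2 libraries from their group means had a correlation of 0.510.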
